A study of Rattus norvegicus with 15 samples.

Results

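The 10 genes described here encode filaments of the hepatocyte skeleton and proteins that mark dedifferentiated or stromal cells: the simple keratins Krt8, Krt18 and Krt19, vimentin (Vim), the cytoplasmic actins Actb and Actg1, smooth muscle actin (Acta2), transgelin (Tagln) and the type I collagen chains Col1a1 and Col1a2. They were taken by symbol from the platform annotation, which gave 18 probe sets of 29214 on the array and 10 genes of the 14506 that could be named. Vim, Krt19, Actb, Acta2, Tagln, Col1a1 and Col1a2 had 1 probe set each, Krt8 had 2, Krt18 had 3 and Actg1 had 6.

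The study measured total RNA of primary rat hepatocytes cultured in perfused microfluidic biochips on 15 Affymetrix gene arrays, and asked what flutamide, a nonsteroidal androgen receptor antagonist, does to these cells. All biochips carried freshly isolated hepatocytes that had adhered for 24 h on a rat tail type 1 coating and were then perfused at 25 µl per minute for 24 h. The groups were 5 DMSO control biochips, 6 biochips with 10 µM flutamide and 4 with 100 µM. The labels give no strain, sex, age or number of animals and do not say which biochips share an animal, so the p-values below measure the spread between these biochips only. The number in each label falls into a run from 10 to 16 and a run from 20 to 27, called run 1 and run 2 here. The labels do not say what separates them. Run 2 held 3 DMSO, 3 10 µM and 2 100 µM biochips, and run 1 held 2, 3 and 2.

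Hepatocytes in the liver carry a single keratin pair, type II Krt8 with type I Krt18, which polymerise together and cannot form filaments alone. Krt19 belongs to bile duct cells and to progenitors, and vimentin to mesenchymal cells, endothelium and macrophages, although hepatocytes kept in culture can gain vimentin and raise their actins as they flatten and lose liver functions. Acta2, Tagln and fibrillar collagen mark activated stellate cells and myofibroblasts, which is why they serve as a check on stromal cells in a hepatocyte preparation.

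The promoters of 4 members are shown because their genes carry the patterns described below: Krt8 and Krt18 as a pair, vimentin as the member with the largest difference at 10 µM and between runs, and Actg1 as a member of the actins that varied together. Each line gives the 150 bases just before the annotated start of the gene, 5′ to 3′ on the gene's strand, from RefSeq for build GRCr8. Capitals mark a TATAAA motif on either strand in Krt8 and Vim, where the Krt8 stretch holds overlapping matches on both strands, and a CArG box, the site that serum response factor reads, in Actg1.
Krt8 (chr7:135010340-135010489, minus strand): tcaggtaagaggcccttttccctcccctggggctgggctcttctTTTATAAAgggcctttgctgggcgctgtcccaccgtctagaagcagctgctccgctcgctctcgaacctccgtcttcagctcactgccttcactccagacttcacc
Krt18 (chr7:135036018-135036167, plus strand): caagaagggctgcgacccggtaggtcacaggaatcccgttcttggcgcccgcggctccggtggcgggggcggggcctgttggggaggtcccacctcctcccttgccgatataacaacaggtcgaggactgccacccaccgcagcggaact
Vim (chr17:81577111-81577260, plus strand): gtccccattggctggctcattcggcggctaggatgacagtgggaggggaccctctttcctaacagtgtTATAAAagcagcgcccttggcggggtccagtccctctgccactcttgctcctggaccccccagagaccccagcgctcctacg
Actg1 (chr10:106120952-106121101, minus strand): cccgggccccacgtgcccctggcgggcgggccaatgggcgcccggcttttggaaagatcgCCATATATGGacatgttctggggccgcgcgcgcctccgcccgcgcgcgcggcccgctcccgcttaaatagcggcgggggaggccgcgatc

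TATAAA, searched on both strands of the 250 bases before the start, was present in 12.9% of 33469 rat promoters, and 501 of them held a CArG box. Acta2, which varied with Actg1, had 0 matches to the CArG box in its 250 bases. Of the 10 members, 6 were found in the promoter table, and Krt19, Actb, Tagln and Col1a1 were not among them. Krt8 and Krt18 are neighbours in the rat genome, with 1 annotated locus and 0 protein-coding genes between them. A match of letters is a description of the sequence and no evidence that a factor binds it.

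All values are log2 expression values as deposited, and a level is never compared between probe sets, whose response differs. A gene was called where its Benjamini-Hochberg adjusted p from limma, over all 14506 genes, was under 0.05. None of the 10 members was called for 100 µM minus DMSO, for 10 µM minus DMSO or for 100 µM minus 10 µM, where limma called 0% of all genes. At an unadjusted p under 0.05, 0 of the 10 members passed for 100 µM minus DMSO (6.85% of all genes), 1 for 10 µM minus DMSO (7.65%) and 1 for 100 µM minus 10 µM (4.98%), and that member was Vim both times. The median difference over the 10 members was 0.02 for 100 µM minus DMSO (0.02 over all genes), -0.00015 for 10 µM minus DMSO (-0.0027 over all genes) and 0.05 for 100 µM minus 10 µM (0.02 over all genes).

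**Figure D1:**
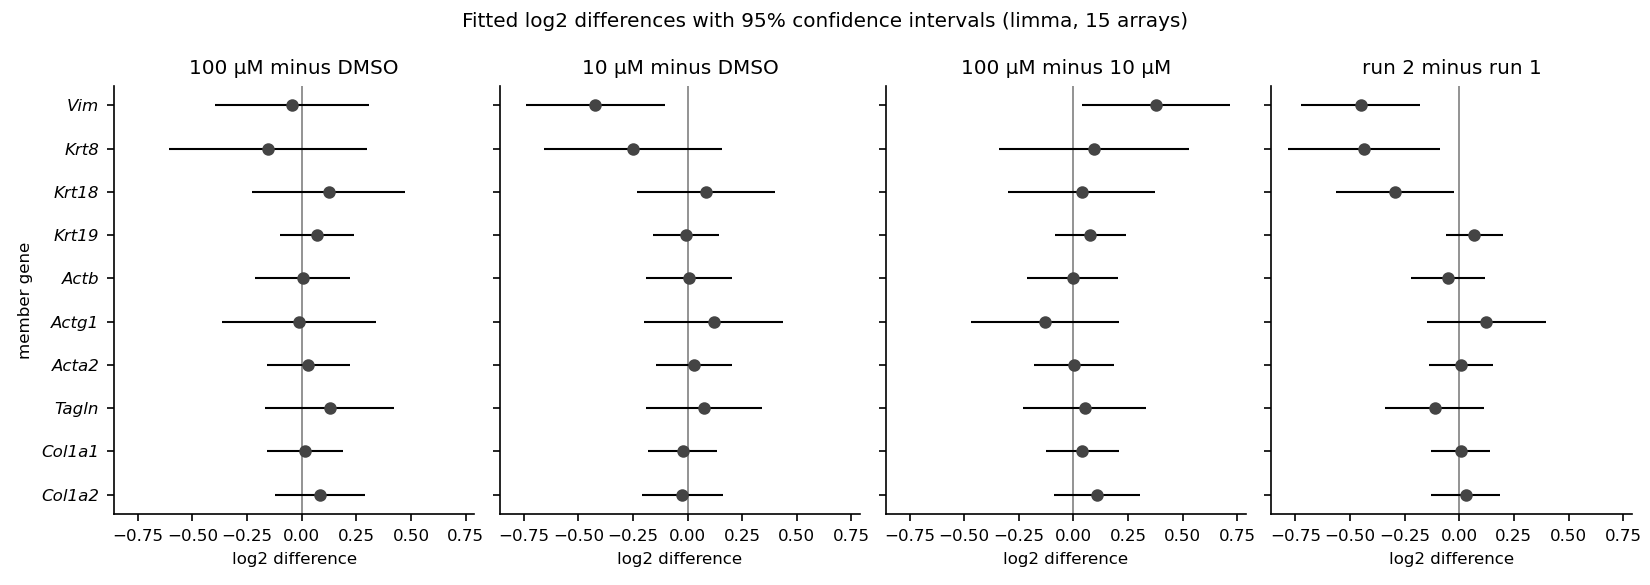
Fitted log2 differences of the 10 member genes (points) with 95% confidence intervals (lines) for the 3 dose comparisons and for run 2 minus run 1, from limma over 15 arrays. Most intervals include 0. Those of Vim for 10 µM minus DMSO and 100 µM minus 10 µM, and those of Vim, Krt8 and Krt18 for run 2 minus run 1, do not, and none of these passed the adjustment over all genes.

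Between runs the hepatocyte keratins and vimentin had the lowest p of the members. None of the 10 was called for run 2 minus run 1, where limma called 0.545% of all genes, and 3 passed an unadjusted p under 0.05 (11.0% of all genes): Vim, Krt8 and Krt18, all with lower values in run 2 (6.23% of all genes in that direction). The second Krt8 probe set and the dimmest Krt18 probe set did not pass that level. Neither difference of a dose effect between runs called a member (0.00689% of all genes called for 100 µM minus DMSO and 0.0414% for 10 µM minus DMSO), and 0 of 10 members passed an unadjusted p under 0.05 for either (6.08% and 10.2% of all genes). Without biochip 23, 2 members passed that unadjusted level for 100 µM minus DMSO (Vim and Krt18, 8.90% of all genes) and 3 for 10 µM minus DMSO (10.4% of all genes), again with none called. Those 3 were Krt18 (0.49 ± 0.14 for run 2 minus run 1, limma adjusted p = 0.252, against 0.18 ± 0.30 with biochip 23), Actb (-0.44 ± 0.15, adjusted p = 0.338, against -0.34 ± 0.17) and Actg1 (-0.61 ± 0.25, adjusted p = 0.431, against -0.40 ± 0.30).

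The 10 µM array of biochip 23, in run 2, had the lowest quality weight of the 15 arrays (0.205, next 0.427 for biochip 15 and 0.549 for biochip 24). The mean level of 17 Kupffer cell and macrophage markers stood 1.31 log2 units above its mean over all arrays on biochip 23, against -0.60 to 0.68 on the other 14. There 15 of the 17 markers were above every other 10 µM array, as were 10 of 12 endothelial markers, 15 of 21 hepatocyte markers, 12 of 18 stellate cell and fibroblast markers and 34.1% of all genes. Results for the keratins and vimentin are therefore given with and without this array. The albumin gene Alb lay between 12.66 and 13.01 on all arrays, above each array's upper quartile. Of the 18 measured stellate cell and fibroblast markers, 11 lay under the array median on all 15 arrays, as did 35.9% of all genes. Among them were Des, 4.04 to 4.53, and Lum, 2.51 to 2.95, while Dpt of the same list was above the upper quartile on all arrays, 9.38 to 10.65. In such bulk RNA, fewer cells of a type and less RNA per cell cannot be told apart.

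**Figure D2:**
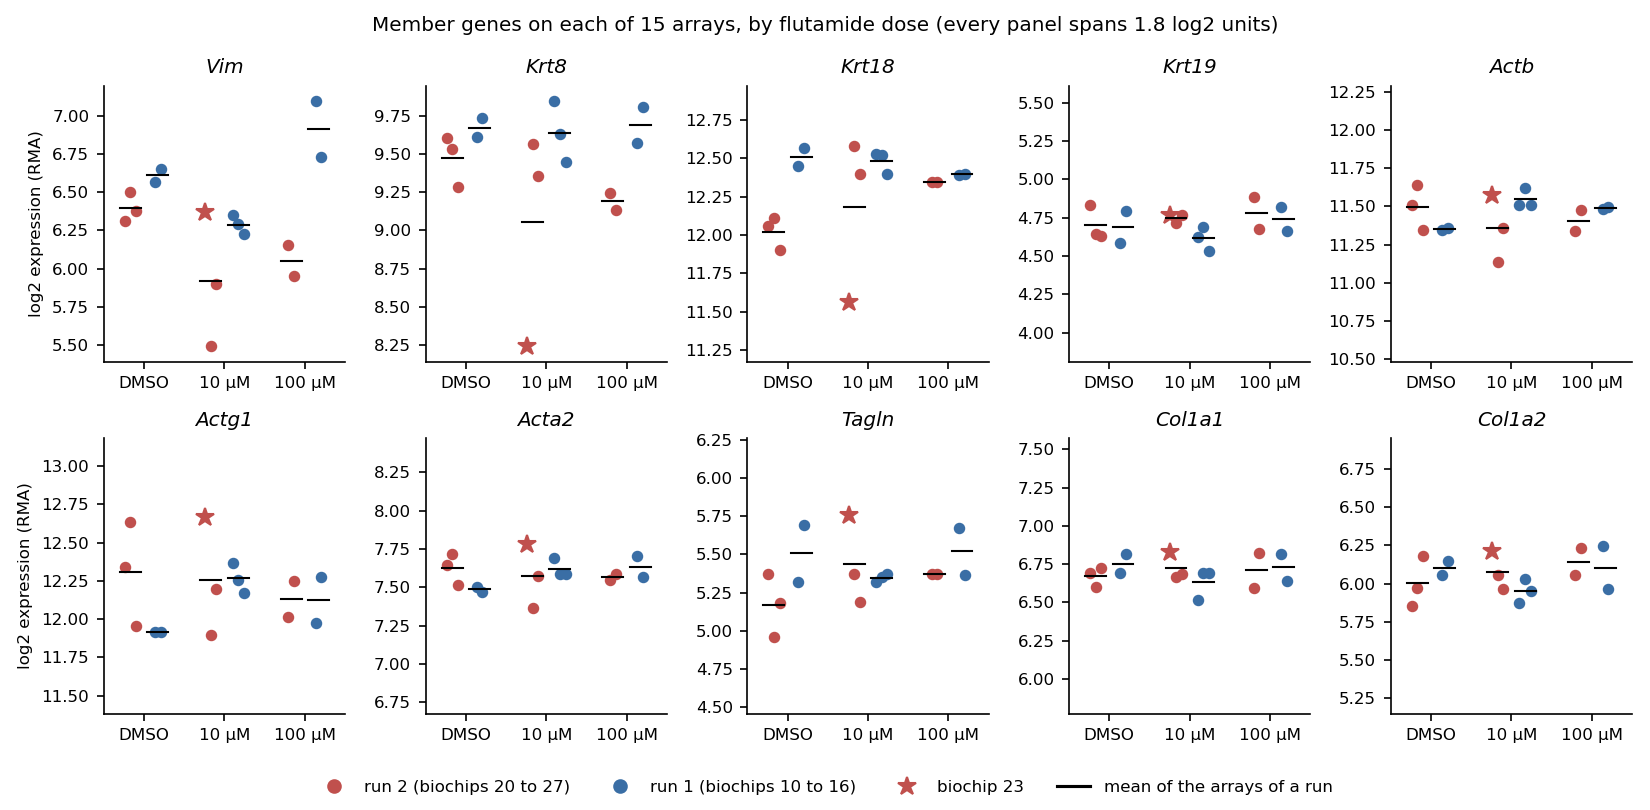
Log2 expression of each member gene on each of the 15 arrays by dose, with run 2 in red to the left of run 1 in blue, biochip 23 as a star, and black lines at the mean of the arrays of a run. Biochip 23 lies below all other arrays for Krt8 and Krt18, and the Vim arrays at 100 µM fall on opposite sides of DMSO in the runs.

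Krt8 and Krt18, the keratin pair of the hepatocyte, did not pass the test for either dose. Krt8 in run 2 was at 9.28, 9.53 and 9.60 on DMSO arrays, at 8.24, 9.36 and 9.56 at 10 µM, and at 9.14 and 9.25 at 100 µM. In run 1 it was at 9.61 and 9.73 on DMSO arrays, at 9.44, 9.63 and 9.84 at 10 µM, and at 9.57 and 9.81 at 100 µM. The single low value, 8.24, was biochip 23, while the other 14 arrays lay between 9.14 and 9.84. In run 2 both 100 µM arrays were below every DMSO array, as for 14.4% of all genes, and in run 1 the groups overlapped. The fitted difference was -0.16 ± 0.21 (SE) for 100 µM minus DMSO (limma adjusted p = 0.917) and -0.25 ± 0.19 for 10 µM minus DMSO (adjusted p = 0.822). Without biochip 23 the difference for 10 µM minus DMSO was -0.04 ± 0.10 (limma adjusted p = 0.960).

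All DMSO arrays of run 2 were below both of run 1 for Krt8, as for 14.9% of all genes. The gap was narrow on the probe set used (9.60 against 9.61) and wider on the second (8.73 against 8.95). Krt18 had this layout too, more widely set apart (12.11 against 12.45). In run 2 it was at 11.90, 12.06 and 12.11 on DMSO arrays, at 11.56, 12.40 and 12.58 at 10 µM, and at 12.34 and 12.35 at 100 µM. In run 1 it was at 12.45 and 12.57 on DMSO arrays, at 12.40, 12.52 and 12.53 at 10 µM, and at 12.39 and 12.40 at 100 µM. Both 100 µM arrays thus lay above all DMSO arrays in run 2 and below both in run 1. The 4 of them together spanned less than the Krt18 values of either other dose group. On the other Krt18 probe sets the 100 µM arrays were also above DMSO in run 2 but overlapped it in run 1. They were there at 10.02 and 10.29 against 10.09 and 10.25, and at 7.01 and 7.27 against 6.92 and 7.23. The 11.56 at 10 µM in run 2 was again biochip 23. Both keratins were lower there than on every other array, as were 17.4% of all genes. Among all genes, 14.8% had all 100 µM arrays of run 2 above all DMSO arrays of that run, and 12.1% had all those of run 1 below.

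The fitted Krt18 difference was 0.12 ± 0.16 (SE) for 100 µM minus DMSO (limma adjusted p = 0.913) and 0.09 ± 0.15 for 10 µM minus DMSO (adjusted p = 0.952). Without biochip 23 the difference for 10 µM minus DMSO was 0.23 ± 0.10, with an unadjusted p of 0.0331 in limma and an adjusted p of 0.550. The effect of 100 µM against DMSO was larger in run 2 than in run 1 by 0.43 ± 0.33 (limma adjusted p = 0.926), and by 0.43 ± 0.15 without biochip 23 (unadjusted p = 0.0132, adjusted p = 0.435). For Krt8 the difference between runs of that effect was -0.30 ± 0.44 (limma adjusted p = 0.990). Its second probe set had the other sign, 0.09 ± 0.51.

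Both keratins had lower fitted values in run 2. Apart from biochip 23, the Krt18 gap lay mainly in the DMSO arrays, with means of 12.02 in run 2 and 12.51 in run 1. At 100 µM the means were 12.34 and 12.40. At 10 µM the other run 2 arrays read 12.40 and 12.58, against 12.40 to 12.53 in run 1. Krt8 differed by -0.44 ± 0.16 for run 2 minus run 1 (limma unadjusted p = 0.0182, adjusted p = 0.323), and by -0.28 ± 0.09 without biochip 23 (adjusted p = 0.192). Its second probe set gave -0.31 ± 0.18 over all arrays (limma unadjusted p = 0.109, adjusted p = 0.575). Krt18 differed by -0.29 ± 0.13 (limma unadjusted p = 0.0348, adjusted p = 0.403), and by -0.18 ± 0.08 without biochip 23 (adjusted p = 0.422). Over all arrays its dimmest probe set gave -0.24 ± 0.12 (limma unadjusted p = 0.0571) and the next -0.34 ± 0.15 (limma unadjusted p = 0.0389).

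The other probe sets of these genes were also low on biochip 23. The second Krt8 probe set read 7.41 there, against 8.53 to 9.03 on the other 14 arrays, and its r with the probe set used was 0.93 over 15 arrays. The 3 Krt18 probe sets had r of 0.82 to 0.95 with each other, and 2 of them had their lowest value on biochip 23, while the dimmest read 6.55 there and 6.52 on the DMSO biochip 21. Each was low on the run 2 DMSO arrays, 6.52 to 6.61 against 6.92 and 7.23 on run 1 DMSO arrays for the dimmest, and 9.36 to 9.66 against 10.09 and 10.25 for the next. The RefSeq table names 6 Krt18 pseudogenes and 1 of Krt8, so signal from near-identical copies in these probe sets is uncertain.

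On biochip 23, Krt8 differed from the mean of the other 10 µM arrays by -1.32, a value that 2.44% of all genes matched or went below. Krt18 was there at -0.93 (6.37% of genes). Over 15 arrays Krt8 and Krt18 had a Pearson r of 0.77, and over the 14 arrays without biochip 23 it was 0.42, so much of their shared variation lay in that array. After dose and run means were taken out, their r was 0.79 over 15 arrays and 0.20 without biochip 23.

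**Figure D3:**
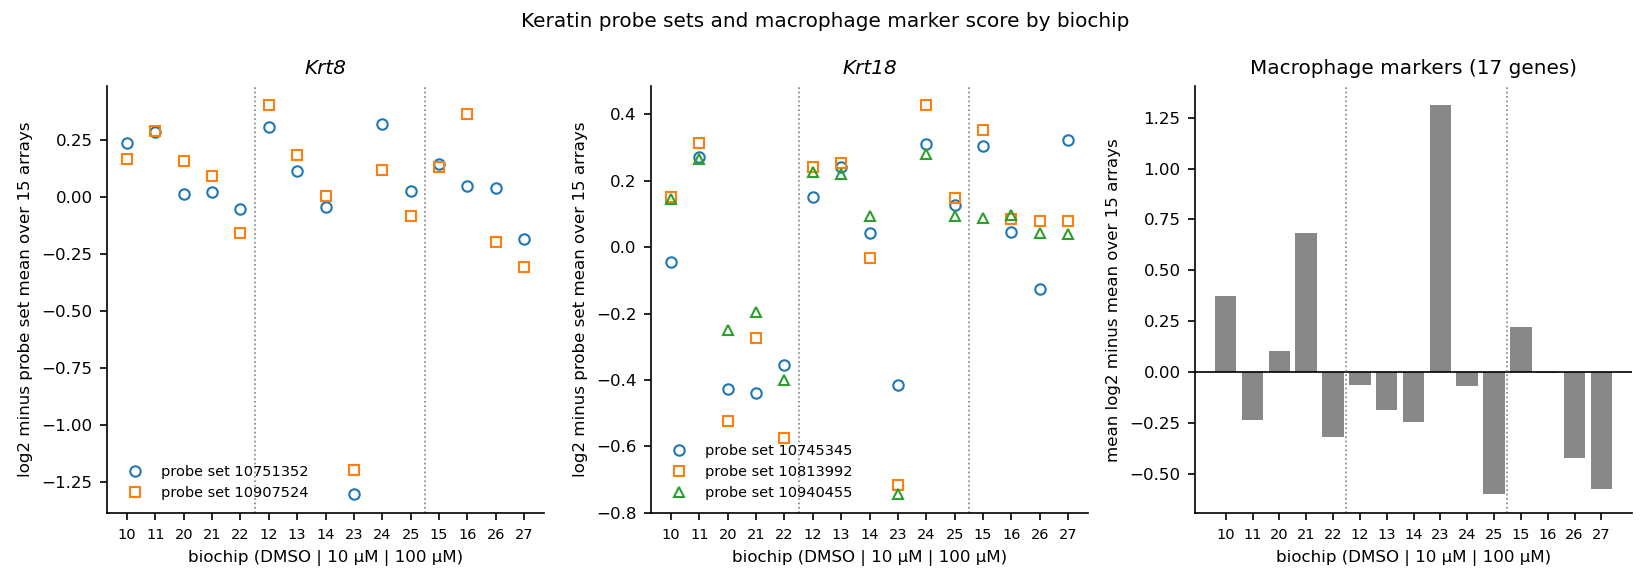
Deviation of each Krt8 probe set (2) and Krt18 probe set (3) from its own mean over 15 arrays, in log2 units, by biochip, and the mean level of 17 Kupffer cell and macrophage markers on the same arrays, with dotted lines between DMSO, 10 µM and 100 µM. Biochip 23 has the lowest value of 4 of the 5 probe sets, all but the dimmest of Krt18, and the highest marker level, 1.31, and biochips 20, 21 and 22 have low Krt18, while their Krt8 values lie among those of the other arrays.

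Krt19, the keratin of bile duct cells, was dim, and its groups overlapped. It was under the array median on all 15 arrays and spanned 4.59 to 4.84 on DMSO arrays, 4.53 to 4.77 at 10 µM (median 4.71) and 4.67 to 4.89 at 100 µM. Its difference was 0.07 ± 0.08 (SE) for 100 µM minus DMSO and -0.01 ± 0.07 for 10 µM minus DMSO (limma adjusted p = 0.895 and 0.993), with a 95% interval of -0.10 to 0.24 for the first. Krt7, the other duct keratin, was also under the array median on every array (4.74 to 5.33). Epcam, an adhesion molecule of bile duct and progenitor cells, was above the upper quartile on all 15 (7.88 to 8.86). It was an exception in its list. Of the 12 measured bile duct markers, 9 lay under the array median on all 15 arrays, as did 35.9% of all genes.

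Vimentin had the largest fitted difference of the 10 members for 10 µM minus DMSO, 100 µM minus 10 µM and run 2 minus run 1. In run 2 Vim was at 6.31, 6.38 and 6.50 on DMSO arrays, at 5.49, 5.90 and 6.37 at 10 µM, and at 5.95 and 6.15 at 100 µM. In run 1 it was at 6.57 and 6.65 on DMSO arrays, at 6.23, 6.29 and 6.35 at 10 µM, and at 6.73 and 7.09 at 100 µM. At 10 µM, 4 of the 6 arrays were below all 5 DMSO arrays, and within each run every 10 µM array was below every DMSO array except biochip 23, at 6.37. At 100 µM, both arrays of run 2 lay below all DMSO arrays of that run and both arrays of run 1 above all DMSO arrays of theirs, layouts that 14.4% and 18.5% of all genes shared. Among all genes, 12.2% had all 10 µM arrays of run 1 below all DMSO arrays of run 1, and 14.5% had all those of run 2 below when biochip 23 was left out.

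Vim averaged 6.48 ± 0.14 on DMSO arrays (SD, n = 5), 6.10 ± 0.34 at 10 µM (n = 6) and 6.48 ± 0.53 at 100 µM (n = 4). The fitted difference for 10 µM minus DMSO was -0.42 ± 0.15 (SE), a 1.34-fold lower level, with a limma unadjusted p of 0.0127 and an adjusted p of 0.495. Without biochip 23 it was -0.54 ± 0.13 (unadjusted p = 0.000878, adjusted p = 0.286). The difference for 100 µM minus DMSO was -0.05 ± 0.16 (limma adjusted p = 0.973), and that for 100 µM minus 10 µM was 0.38 ± 0.16 (unadjusted p = 0.0308, adjusted p = 0.930).

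Fitted in each run alone, Vim for 100 µM minus DMSO was -0.35 ± 0.23 in run 2 and 0.30 ± 0.14 in run 1 (limma adjusted p = 0.868 and 0.792). The difference between these, run 2 minus run 1, was -0.65 ± 0.30 (limma unadjusted p = 0.0501, adjusted p = 0.821), and -0.65 ± 0.21 without biochip 23 (unadjusted p = 0.0102, adjusted p = 0.415). For 10 µM minus DMSO the runs had the same sign, -0.48 ± 0.21 in run 2 and -0.32 ± 0.13 in run 1 (limma adjusted p = 0.434 and 0.896).

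Vim in run 2 ranged from 5.49 to 6.50 with a median of 6.23 (n = 8), against 6.23 to 7.09 with a median of 6.57 in run 1 (n = 7), and the runs overlapped. Among DMSO arrays the run 2 values were all below the run 1 values, as for 14.9% of all genes, and likewise among 100 µM arrays, as for 18.0%. The fitted difference for run 2 minus run 1 was -0.45 ± 0.13 (limma unadjusted p = 0.00312, adjusted p = 0.152). It passed the threshold without biochip 23, at -0.54 ± 0.11 (limma adjusted p = 0.0354), and with array quality weights, at -0.44 ± 0.09 (adjusted p = 0.0270). The macrophage marker level, 1.31 on biochip 23, moves with this array, and its part in the vimentin value was not tested.

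The cytoplasmic actins, which build the cortical and stress fibre networks, had no called difference, and they varied together from array to array. Actb in run 2 was at 11.35, 11.51 and 11.64 on DMSO arrays, at 11.14, 11.36 and 11.57 at 10 µM, and at 11.34 and 11.47 at 100 µM. In run 1 it was at 11.34 and 11.36 on DMSO arrays, at 11.51, 11.51 and 11.62 at 10 µM, and at 11.49 at 100 µM on both arrays. In run 1 every treated array was above both DMSO arrays, as for 13.3% of all genes at 10 µM and 18.5% at 100 µM, whereas in run 2 the groups overlapped.

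Actg1 in run 2 was at 11.96, 12.34 and 12.63 on DMSO arrays, at 11.90, 12.20 and 12.67 at 10 µM, and at 12.01 and 12.25 at 100 µM. In run 1 it was at 11.92 on both DMSO arrays, at 12.17, 12.26 and 12.37 at 10 µM, and at 11.98 and 12.28 at 100 µM. As for Actb, all 5 treated arrays of run 1 were above both DMSO arrays. Its highest arrays, biochip 23 at 12.67 and the DMSO biochip 21 at 12.63, were also those with the highest macrophage marker levels, 1.31 and 0.68. The next highest marker levels, 0.37 on the DMSO biochip 10 and 0.22 on biochip 15 at 100 µM, went with low Actg1, 11.92 and 11.98. The part of macrophages in the Actg1 values was not tested. All 6 Actg1 probe sets moved as one, with r of 0.98 to 1.00 between them.

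Acta2, the smooth muscle actin, spanned 7.47 to 7.72 on DMSO arrays, 7.36 to 7.78 at 10 µM (median 7.59) and 7.54 to 7.70 at 100 µM, and the groups overlapped. In run 1 alone all 5 treated arrays, 7.57 to 7.70, were above both DMSO arrays, 7.47 and 7.50. The shares of all genes with this layout are those given for Actb, 13.3% and 18.5%.

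The differences for 100 µM minus DMSO were 0.0044 ± 0.10 (SE) for Actb, -0.01 ± 0.16 for Actg1 and 0.03 ± 0.09 for Acta2 (limma adjusted p = 0.996, 0.993 and 0.970). Those for 10 µM minus DMSO were 0.0071 ± 0.09, 0.12 ± 0.15 and 0.03 ± 0.08 in the same order (adjusted p = 0.993, 0.919 and 0.979). Without biochip 23 these were -0.03 ± 0.09, 0.04 ± 0.14 and -0.01 ± 0.08, so the signs of Actb and Acta2 turned. Their 95% intervals for 100 µM minus DMSO ran from -0.21 to 0.22 for Actb, from -0.36 to 0.34 for Actg1 and from -0.16 to 0.22 for Acta2. RefSeq names 11 pseudogenes of Actg1 and 10 of Actb, and the coding sequences of the cytoplasmic actins are alike, so their values cannot be taken as fully separate.

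Tagln, an actin-binding protein of smooth muscle and myofibroblasts, and the collagen chains had no called difference. Tagln spanned 4.96 to 5.69 on DMSO arrays, 5.19 to 5.76 at 10 µM (median 5.36) and 5.37 to 5.67 at 100 µM. It lay under the array median on 12 of the 15 arrays, and 5 arrays carry the identical value 5.37, so little of its spread can be read. Col1a1 spanned 6.60 to 6.81 on DMSO arrays, 6.52 to 6.83 at 10 µM (median 6.69) and 6.59 to 6.83 at 100 µM. Col1a2 spanned 5.85 to 6.18 on DMSO arrays, 5.87 to 6.21 at 10 µM (median 5.997) and 5.96 to 6.24 at 100 µM. The groups overlapped for all 3 genes.

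For 100 µM minus DMSO the difference was 0.13 ± 0.14 (SE) for Tagln, 0.02 ± 0.08 for Col1a1 and 0.08 ± 0.10 for Col1a2 (limma adjusted p = 0.892, 0.977 and 0.896). For 10 µM minus DMSO it was 0.08 ± 0.12, -0.02 ± 0.07 and -0.02 ± 0.09 in the same order (adjusted p = 0.948, 0.982 and 0.985). Without biochip 23 it was -0.02 ± 0.10, -0.06 ± 0.07 and -0.07 ± 0.08, so the sign of Tagln turned. The 95% intervals for 100 µM minus DMSO reached from -0.16 to 0.19 for Col1a1 and from -0.12 to 0.29 for Col1a2. All 4 stromal members were above every other 10 µM array on biochip 23, as were 34.1% of all genes, and 3 of the 4 were there at their highest of all 15 arrays, as were 18.8% of all genes. Set against the mean of the other 10 µM arrays, 89% of genes lay at or below Tagln there, 74.4% at or below Col1a2, 72.5% at or below Acta2 and 67.7% at or below Col1a1.

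**Figure D4:**
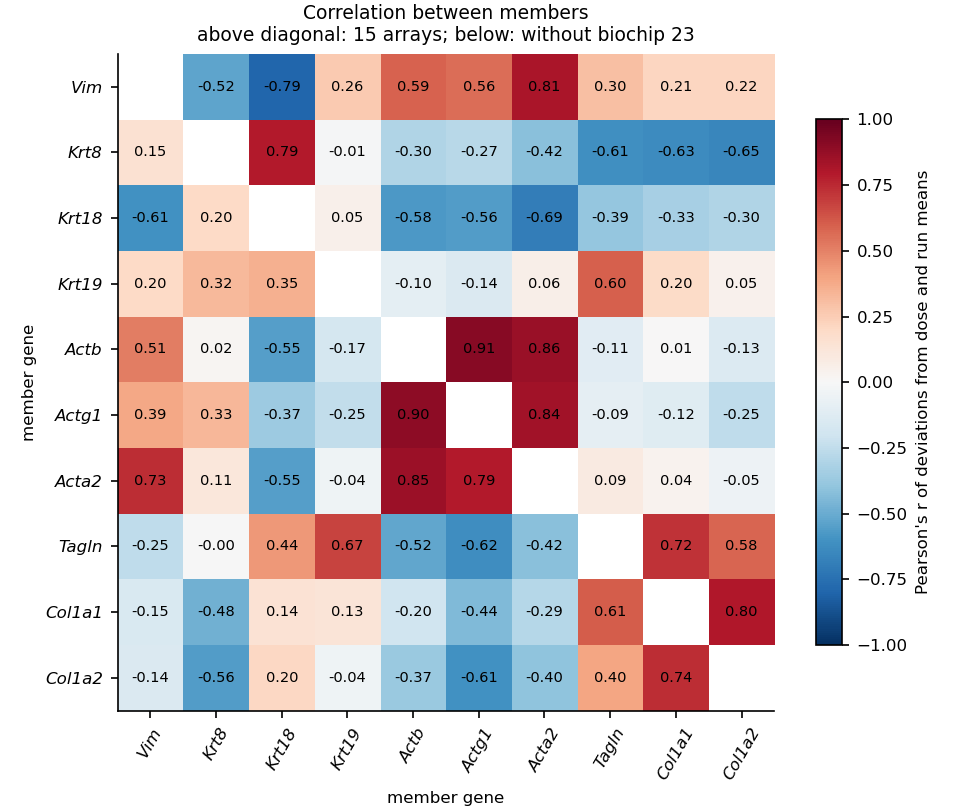
Pearson's r between members, calculated on log2 values after dose and run means were removed, over 15 arrays above the diagonal and over 14 arrays without biochip 23 below it. The actins Actb, Actg1 and Acta2 form a block of 0.84 to 0.91 above the diagonal, and Col1a1 with Col1a2 reaches 0.80.

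The members fell into groups by how they varied across arrays once dose and run means were removed. These correlations describe the 15 arrays, which share a normalization, and carry no test. Actb, Actg1 and Acta2 had r of 0.84 to 0.91 with one another (0.79 to 0.90 without biochip 23). Acta2 had r of only 0.09 with Tagln, 0.04 with Col1a1 and -0.05 with Col1a2 (-0.42, -0.29 and -0.40 without biochip 23). By this measure Acta2 ran with the cytoplasmic actins and not with the other stromal members. Little of the spread of Tagln can be read, and whether signal shared among actin probe sets had a part was not tested. Tagln, Col1a1 and Col1a2 had r of 0.58 to 0.80 (0.40 to 0.74 without biochip 23). Vim went with Acta2 (0.81, and 0.73 without biochip 23) and against Krt18 (-0.79, and -0.61 without biochip 23).

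Over the 15 arrays, with nothing removed, the 3 genes most like each member were found among all named genes. For Krt8 they were Bnip3l, Sf3b2 and Urod (r 0.95, 0.94 and 0.93), and without biochip 23 these were 0.82, 0.80 and 0.76. For Krt18 they were Prpf38a, Trappc1 and Sfswap (0.96, 0.93 and 0.93). For Vim they were Rfpl4a, Sall2 and Gpnmb (0.81, 0.81 and 0.80). For Actb they were Slc16a10, Ncoa4 and Srpra (0.89, 0.87 and 0.86), for Actg1 Slc15a4, Arl6ip1 and Lmbrd2 (0.91, 0.86 and 0.85), and for Acta2 Plin2, Bsdc1 and Samd8 (0.88, 0.87 and 0.84). For Krt19 they were Or5p76, Cnfn and Eps8l1 (0.85, 0.84 and 0.83), and for Tagln Unc45b, Kap and Maz (0.90, 0.89 and 0.88). For Col1a1 they were Synm, Sox12 and Rsph6a (0.91, 0.90 and 0.90), and for Col1a2 Sox12, Col27a1 and Add2 (0.95, 0.91 and 0.90). Each r was picked as one of the highest among all named genes over 15 arrays, so it is high by selection and carries no test.

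Other genes of the same networks were examined from lists, with all counts over 14506 genes. None of 11 intermediate filament genes, 36 actin-binding and serum response factor target genes, 12 tubulins, 26 matrix genes and 28 dedifferentiation genes was called at either dose. The median difference for 100 µM minus DMSO was 0.06 for the filament genes, 0.0031 for the actin genes, -0.09 for the tubulins, 0.03 for the matrix genes and -0.03 for the dedifferentiation genes, beside 0.02 over all genes. For 10 µM minus DMSO these medians were 0.02, -0.04, -0.10, -0.05 and -0.08, beside -0.0027 over all genes, and 11 of 12 tubulins had lower values. The genes of lowest p at 10 µM were Plec, the plectin that links filaments (-0.30), Tln1, an adhesion protein (0.40), Tuba1a (-0.24), Sparc, a matrix protein (-0.33), and Cdh1, the epithelial cadherin (0.33), with limma adjusted p of 0.399, 0.375, 0.641, 0.564 and 0.525. At 100 µM they were Plec (-0.23, adjusted p = 0.708), Msn (0.53, 0.649), Tubb3 (0.59, 0.682), Fn1, fibronectin (-0.49, 0.677), and Yap1, a growth control cofactor (-0.22, 0.728).

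Among the cell type markers, those of lowest p at 10 µM were Lum (0.12), Onecut1 (-0.31), Bnc1 (-0.25), Pecam1 (-0.40), Cd68 (1.17) and Ttr (0.41), with limma adjusted p of 0.741, 0.633, 0.606, 0.447, 0.447 and 0.394. At 100 µM they were Cygb (0.17), Onecut1 (-0.37), Bnc1 (-0.14), Gata4 (-0.19), Cd68 (1.18) and Asgr1 (-0.65), with limma adjusted p of 0.779, 0.708, 0.841, 0.775, 0.665 and 0.510. Cd68 stood at 7.18 to 7.52 on the DMSO arrays of run 2 and at 9.87 and 10.15 on those of run 1, and so differed between the runs already in controls.

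Between runs, 3 genes of these lists were called, 2 of 36 actin-binding genes and 1 of 26 matrix genes, against 0.545% of all genes, and all fell in run 2. Msn, the moesin that ties the membrane to actin, ranged from 6.31 to 6.81 in run 2, against 7.15 to 8.25 in run 1, and the runs did not overlap. Its difference was -1.16 (limma adjusted p = 0.00172), a 2.24-fold lower level. Actn1, the alpha-actinin of stress fibres, ranged from 6.74 to 7.44 in run 2, against 7.44 to 8.31 in run 1, the lowest run 1 array meeting the highest run 2 array, and the difference was -0.92 (adjusted p = 0.0109). Timp1, an inhibitor of matrix proteases, ranged from 5.13 to 6.23 in run 2, against 6.28 to 7.94 in run 1, without overlap, and the difference was -1.34 (limma adjusted p = 0.0165). Without biochip 23 the differences were -1.17, -0.88 and -1.47, all called (limma adjusted p = 0.00286, 0.0157 and 0.00482). The Timp1 call was lost without the DMSO biochip 11, at -1.26 (limma adjusted p = 0.0512).

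Of the lists without a call between runs, the genes of lowest p were Lmna, a nuclear lamin (-0.18), Tuba1c (-0.26) and Yap1 (0.25), with limma adjusted p of 0.703, 0.551 and 0.211. Vimentin had the sign of Msn, Actn1 and Timp1 in this comparison with a smaller difference. Among all genes 0.407% had every run 2 array below every run 1 array. None of 18 stellate cell and fibroblast markers, 12 bile duct markers, 6 mesothelial markers, 12 endothelial markers, 17 macrophage markers and 21 hepatocyte markers was called between runs or at either dose. Their medians were 0.03, 0.04, 0.02, 0.14, 0.12 and 0.07 for run 2 minus run 1. The genes of lowest p were Dcn (0.24), Onecut1 (-0.20), Gpm6a (-0.63), Cdh5 (0.29), Cd68 (-1.42) and Fgb (0.44), with limma adjusted p of 0.501, 0.575, 0.310, 0.141, 0.0708 and 0.0746. Cd68, a lysosomal protein of macrophages, thus had the sign of Vim between runs, opposite to the median of its list. All 12 endothelial markers had higher values in run 2, 5 of them at an unadjusted p under 0.05 (4.73% of all genes in that direction) and none of them called. Of the 12, 8 lay under the array median on all 15 arrays, as did 35.9% of all genes. Biochip 23, a run 2 array on which 10 of them exceeded every other 10 µM array, is included in these values. Whether cell makeup had a part in the vimentin difference was not tested.

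**Figure D5:**
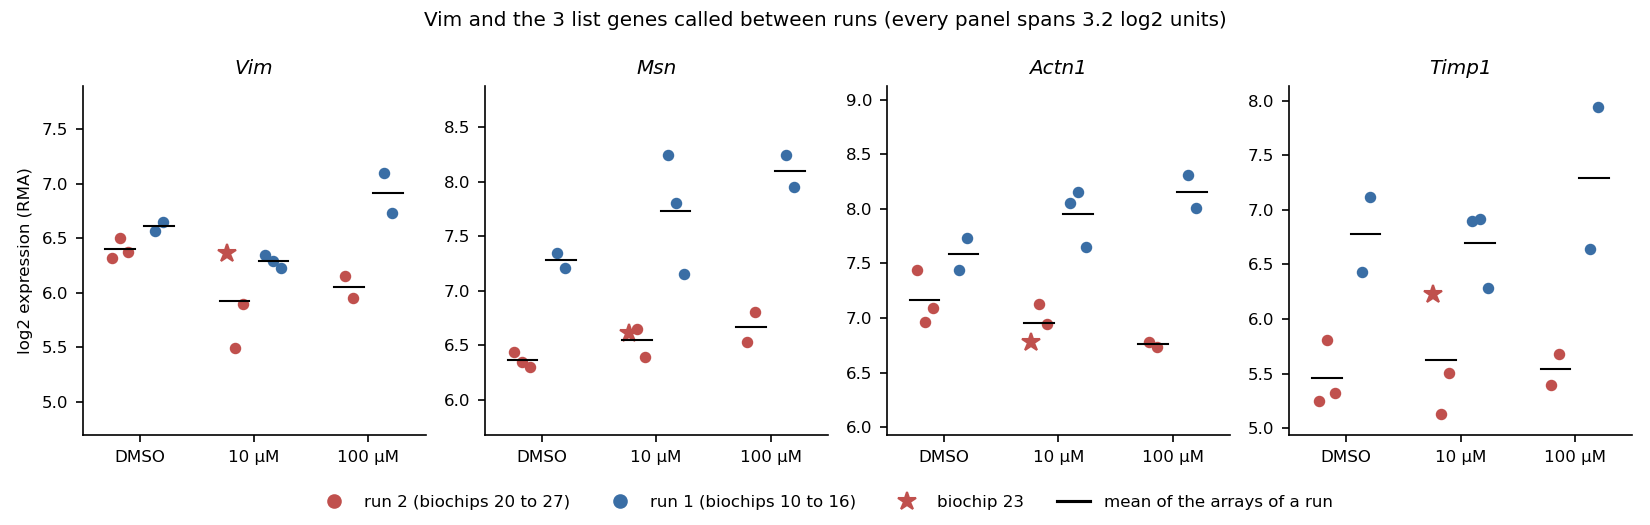
Log2 expression of Vim, Msn, Actn1 and Timp1 on each array by dose, with run 2 in red to the left of run 1 in blue, biochip 23 as a star, and black lines at the mean of the arrays of a run. Msn shows no overlap between runs, with 6.31 to 6.81 in run 2 and 7.15 to 8.25 in run 1, while Vim ranges from 5.49 to 6.50 in run 2 and from 6.23 to 7.09 in run 1.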

How the data were processed

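Total RNA of rat hepatocytes was measured on 15 Affymetrix gene arrays from 100 ng per sample, per the labels' protocols. The authors deposited log2 values made with RMA and Partek, per the submitters' processing notes (no versions given). Array minima, medians and maxima (1.80 or more, 5.38 to 5.51, up to 13.51) show no unnormalized array, and the number of arrays limits the precision. Of 29214 probe sets, 15633 were annotated, 323 of them with several genes and 15310 with 1 symbol, of which 15279 were matched to RefSeq; 13904 had no single name. For the 527 genes with several probe sets the one with the highest mean was used, leaving 14506 genes.

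Groups and run numbers were read from the sample titles. limma 3.58.1 in R 4.3.3 fitted dose and run over all arrays with Benjamini-Hochberg adjustment. Separate fits gave the dose by run differences. The code was tested on simulated data. Genes were named by rule: all members, for each list and comparison the called genes (up to 3) or the gene of lowest p, and the 3 nearest genes to each member by r. Dpt, Krt7, Epcam, Alb and Des were named for their known roles or after their values were seen. Alternatives were single arrays left out, biochip 23 left out, array weights, no run term, each run alone, trended robust eBayes, renewed quantile normalization, dim genes left out and all probe sets. Members and lists were chosen with earlier results of these data known.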

Additional observations from a re-analysis of the deposited data

Results flagged for a closer look

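In 54 dose groups of single probe sets, 8 had an array far from the rest by Dixon's test, where chance marks about 1 in 20 groups. The groups are not independent, since several probe sets measure the same gene on the same arrays. The 8 therefore cannot be set against that rate, and no share over all genes was counted. On biochip 23 in the 10 µM group Krt8 read 8.24 with the next array at 9.36, and its second probe set read 7.41 with the next at 8.67. Krt18 there read 11.56 with the next at 12.40, and its dimmest probe set read 6.55. Tagln was the highest of the 10 µM group there, at 5.76 with the next at 5.37. On biochip 15 at 100 µM, Tagln read 5.67 with the next at 5.37, and the Krt18 probe set of middle level read 10.29 with the next at 10.02. In both, the other 100 µM arrays were nearly tied, from 5.367 to 5.370 and from 10.017 to 10.022. Actb on biochip 26 at 100 µM read 11.34 with the next at 11.47. Biochips 23 and 15 have the lowest quality weights, 0.205 and 0.427.

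Fitted in each run alone, 100 µM minus DMSO had opposite signs in the runs for 7 of the 10 members and for 47.9% of all genes. For Vim and Krt18 all 100 µM arrays also lay on one side of the DMSO arrays of their run and on opposite sides in the runs. For Krt18 this held only on the probe set used, as the others overlapped DMSO in run 1. The share of all genes with such a joint layout was not counted. Each single layout was shared by 12.1% to 18.5% of all genes, so these members cannot be called unusual. The difference of the effect, run 2 minus run 1, was -0.65 for Vim and 0.43 for Krt18. Neither passed the adjustment in limma (adjusted p = 0.821 and 0.926).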

How the results depend on the processing

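The number of members called was 0 at either dose, for 100 µM minus 10 µM and for both dose by run differences under every alternative tried, 24 for each dose comparison and 21 for each other one. The lowest adjusted p of any member was 0.642, 0.161 and 0.643 for 100 µM minus DMSO, 10 µM minus DMSO and 100 µM minus 10 µM. For run 2 minus run 1 the count was 0, and 1 (Vim) without biochip 23 and with array quality weights; leaving out 1 array at a time gave 0 to 1. Vim kept its sign there in all 21 alternatives, from -0.54 to -0.38. The number of all genes called between runs was 79, 129 without biochip 23, 191 with weights and 37 to 129 with 1 array left out. For the dose by run differences it was 1 for 100 µM (0 to 22 with 1 array left out) and 6 for 10 µM (2 to 116). Of the member values that were not called, 29, 27 and 23 of 240 changed sign in the dose comparisons, and 14, 11 and 4 of 210 in the others. Leaving out biochips 15, 23 and 24 together was chosen after seeing the data and called no member in any comparison. Vim, called between runs without biochip 23 alone, was thus not called there. The number of all genes called between runs was then 100. No paired analysis was possible because no biochip number occurs in more than one group. With 4 to 6 arrays a group, the 95% interval for 100 µM minus DMSO extended a median of 0.27 to each side over all genes. Much larger differences, such as 1.18 for Cd68, were not called. That Cd68 value averages unlike runs, as its treated arrays overlapped DMSO in run 1. Signals as dim as Krt19 and Tagln may understate a difference.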
